A study of Brassica napus with 18 samples.

Results

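Expansins are secreted plant proteins that loosen cell walls, and 130 of the 108207 genes in the expression table of Brassica napus (oilseed rape) carry an expansin name. Membership rested on the annotation alone: each gene whose Swiss-Prot description contains the word expansin, in any letter case, was counted. The 130 genes bear 31 names, each assigned from an Arabidopsis thaliana protein, and divide into 101 expansins of class A (EXPA), 18 of class B (EXPB), 5 expansin-like A (EXLA) and 6 expansin-like B genes (EXLB1). By identifier 61 lie on A chromosomes and 65 on C chromosomes, the 2 ancestral genomes that this allotetraploid combines, and 4 are unplaced. A single member, BnaA02G0350400ZS, is named EXPA15 by Swiss-Prot and a yippee-like protein by a second description, and it was listed at 0 in every library.

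Class A and class B expansins act in the acidified wall of a growing cell, where they are thought to break the non-covalent contacts between cellulose microfibrils and the polymers around them. Plasma membrane proton pumps acidify that wall, and xyloglucan-modifying enzymes and endoglucanases remodel the same network. The expansin-like proteins share the 2-domain fold of the family, but wall-loosening activity has not been shown for them. Leaf growth slows within hours when roots meet salt.

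Poly(A) RNA of the aerial part was sequenced in 18 libraries, 3 for each of 6 groups. The mutant line bnagrp3 and the wild type (WT) were grown for 3 weeks in Hoagland's nutrient solution, which the mock groups and the salt groups share, and each was sampled as mock, after 4 h and after 8 h with 200 mM NaCl. The labels name neither the mutated GRP3 copies nor the kind of mutation, and they do not say whether replicates were separate plants. The p-values therefore speak of the spread among libraries of the same group, and part of that spread may be technical. This spread was pooled for each gene over the 6 groups and moderated by that of other genes. The mock columns are headed 0 h, so the effect of NaCl and that of the hour of sampling cannot be told apart.

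Of 13 rows that Swiss-Prot names glycine-rich protein 3 or its short isoform, the secreted protein family for which the mutant is named, 3 were lower in the 3 bnagrp3 libraries than in the 3 WT libraries of each treatment. One of them, BnaA07G0050000ZS, lay between 0.88 and 11.2 TPM (a length-corrected share of the transcripts of a library) over the 9 bnagrp3 libraries and between 16.9 and 137 TPM over the 9 WT libraries. Another, with no chromosome in its identifier, lay between 0 and 4.51 TPM in bnagrp3 and between 376 and 2799 TPM in WT. The abundant BnaC03G0480300ZS overlapped, with 1046 to 3067 TPM in bnagrp3 and 1676 to 4391 TPM in WT. Bnascaffold0025G0035900ZS went the other way, with 6.13 to 160 TPM in bnagrp3 and 0.9 to 6.56 TPM in WT. The tissue is labelled leaf. Of 78 genes for the small Rubisco subunit or chlorophyll-binding proteins, 72 reached 1 TPM in a library. Of 22 root Casparian strip genes 0 did, and these 22 summed to at most 0.15 TPM. The lists mark green tissue and root, and do not tell leaf from other green parts of the shoot. The WT libraries were uneven in a set of 326 genes, chosen for reaching 5 TPM throughout bnagrp3 while staying at or under 0.2 TPM in several (at least 2) of the 9 WT libraries. Relative to the bnagrp3 libraries of the same treatment, the median level of these genes was 0.214 to 0.254 in the WT mock libraries, 0, 0.670 and 0.233 in WT replicates 1, 2 and 3 at 4 h, and 0.168, 0 and 0.369 in those at 8 h. Replicate 2 at 4 h and replicate 3 at 8 h, with the highest ratios of their groups, are the 2 WT libraries that stand apart. WT replicate 1 at 4 h and replicate 2 at 8 h, with ratios of 0, differ from the mock libraries as well. The set asked for at most 0.2 TPM in at least 2 WT libraries, so ratios near 0 in some WT libraries are partly built in. Without the 2 WT libraries that stand apart, 5 of the 47 member calls in WT at 4 h against mock were lost and 4 gained. Of the 47 WT calls at 8 h, 2 were lost and 2 gained. Between 4 h and 8 h, 8 of the 25 WT calls were lost and 1 was gained.

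Much of the family was at or near 0 TPM in this tissue. Of the 130 members, 33 were listed at 0 TPM in all 18 libraries, and 23 more stayed below the filter of 1 TPM in at least 3 libraries, with a highest single value of 1.74 TPM. The 7 genes named EXPA7, a root hair expansin in Arabidopsis, were all among those at 0, as were the members named EXPA22, EXPA23, EXPA24, EXPB4, EXPB5 and EXPB6. EXPA2, known from germinating Arabidopsis seeds, and EXPA17, known from lateral root formation, each stayed at or below 0.24 TPM. EXPA18, the other expansin of Arabidopsis root hairs, was present at a low level in 2 of its 3 members. BnaA09G0129800ZS averaged 2.50 ± 0.35 TPM in bnagrp3 and 3.06 ± 0.47 TPM in WT after 8 h of NaCl (SD, n = 3 each), and BnaA09G0129700ZS averaged 3.21 ± 1.03 TPM and 4.60 ± 1.69 TPM in the same libraries. The third member, BnaC09G0137700ZS, did not exceed 0.17 TPM.

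The 74 members that passed the filter bear 21 names. They comprise 56 of the 101 class A genes, 7 of the 18 class B genes and every expansin-like gene. At least 10 TPM was reached in some library by 44 members, and at least 100 TPM by 8. Identical values in all 18 libraries appeared in 4 pairs of rows, 1 pair each of EXPA5, EXPA15, EXPA20 and EXLA2, and 2 EXPA13 rows on chromosomes A05 and C05 shared the same nonzero value in 4 libraries. How reads shared by such near-identical copies were divided is not stated, so levels of single copies are uncertain where copies are alike. Sums below count each identical pair once.

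**Figure D1:**
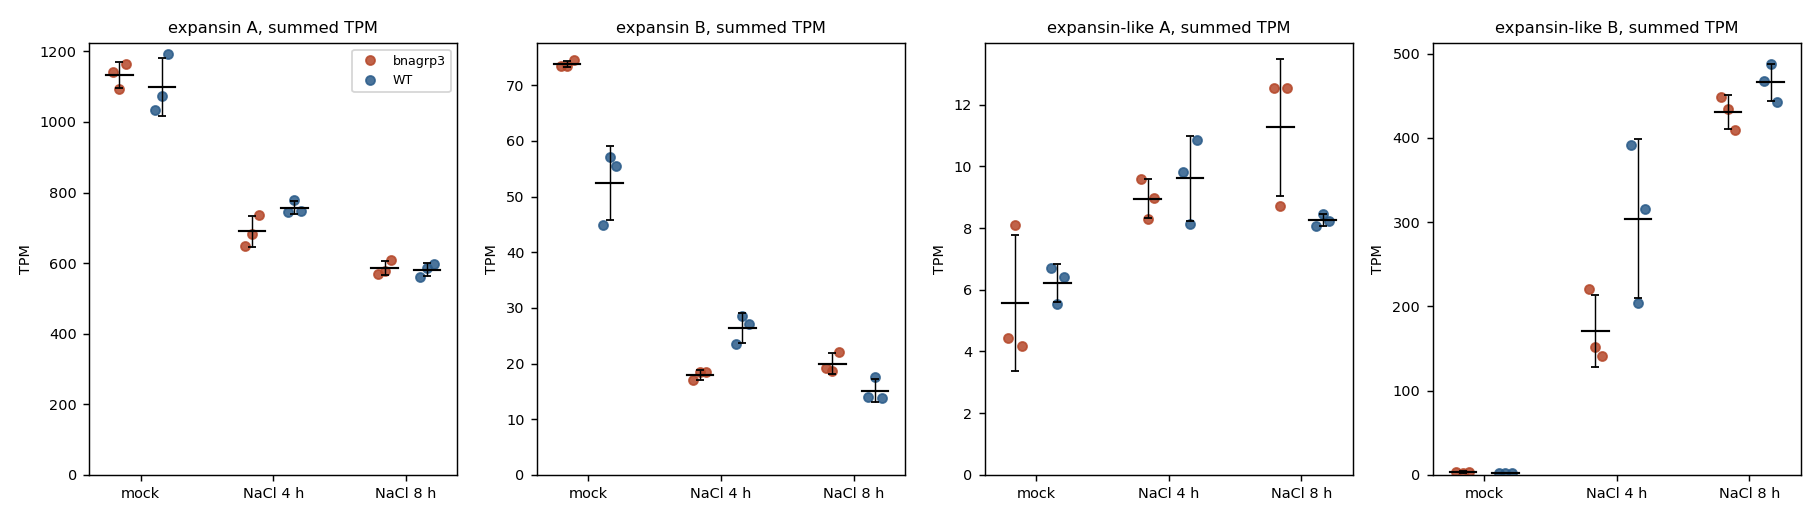
Summed TPM of each expansin class in every library, with identical rows counted once; points are libraries (red bnagrp3, blue WT), horizontal lines the mean of 3 libraries and bars 1 SD. Expansin-like B sums were below 4 TPM in mock and 409 to 487 TPM after 8 h of NaCl, while class A and class B sums were lower in every NaCl library than in every mock library of the same genotype.

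Under NaCl the make-up of the family changed. Class A transcripts summed to 586 ± 20.3 TPM in bnagrp3 and 582 ± 18.9 TPM in WT after 8 h of NaCl, against 1133 ± 36.0 TPM and 1099 ± 81.8 TPM in the mock libraries of bnagrp3 and WT (SD, n = 3 each). Expansin-like B transcripts went the other way, with 431 ± 19.9 TPM in bnagrp3 and 466 ± 22.1 TPM in WT after 8 h of NaCl, against 2.96 ± 1.07 TPM in bnagrp3 mock and 2.05 ± 0.34 TPM in WT mock. They made up 41.1% of all expansin TPM in bnagrp3 and 43.5% in WT at 8 h, against 0.243% in bnagrp3 mock and 0.177% in WT mock. The sum over the whole family was 1048 ± 6.5 TPM at 8 h in bnagrp3, against 1216 ± 35.2 TPM in its mock libraries, and 1071 ± 25.1 TPM at 8 h in WT, against 1160 ± 86.0 TPM in its mock libraries. At 4 h the total was lower still in bnagrp3, at 888 ± 23.1 TPM or 0.73 of mock, and 1097 ± 75.9 TPM or 0.95 of mock in WT, with class A at 0.61 and 0.69 of mock. Expansin-like B transcripts at 4 h summed to 171 ± 42.8 TPM in bnagrp3 and 304 ± 94.6 TPM in WT. In this bulk tissue, fewer cells of a type and less RNA per cell cannot be told apart.

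Single genes were tested with limma on log2(TPM + 1) over all 57923 genes that passed the filter, with a call at a Benjamini-Hochberg adjusted p under 0.05, and fold changes below are on that scale, which understates changes of weakly expressed genes. After 4 h of NaCl, 18 of the 74 tested expansins were higher and 30 lower in bnagrp3 (52.2% of all tested genes were called, 28.7% higher and 23.5% lower), and 22 were higher and 25 lower in WT (46.6% of all tested genes called, 26.0% higher and 20.5% lower). After 8 h, 17 were higher and 32 lower in bnagrp3 (49.7% of all genes called, 31.3% higher and 18.4% lower), and 17 were higher and 30 lower in WT (46.3% of all genes called, 29.0% higher and 17.3% lower). The shares of tested members called higher ran from 23.0% to 29.7% over the 4 comparisons. They lay below those of all genes except in WT at 4 h, with 29.7% against 26.0%. The shares called lower, 33.8% to 43.2%, lay above those of all genes. Of these calls, 37 of 48 at 4 h and 39 of 49 at 8 h in bnagrp3, and 36 of 47 and 41 of 47 in WT, were kept under every alternative in which the gene was tested. The median member had a fold change of -0.30 at 4 h and -0.41 at 8 h in bnagrp3, where the median of all genes was 0.06 and 0.14, and of -0.03 at 4 h and -0.36 at 8 h in WT, where it was 0.05 and 0.14. Rescaling by the median of ratios took the 8 h median of all genes to 0.01 in both genotypes. It took the 8 h median of the members to -0.58 in bnagrp3 and -0.45 in WT, so the size of the 8 h fold changes depends in part on the scaling. With that rescaling the share of all called genes that was higher at 8 h was 50.2% in bnagrp3, against 62.9% before, and 50.3% in WT, against 62.6% before, while of the called members 26.5% were higher in bnagrp3, against 34.7% before, and 34.7% in WT, against 36.2% before. The 4 h and 8 h comparisons of a genotype share its mock libraries. Photosynthesis markers fell alongside. The summed TPM of the 78 marker genes was 71806 to 80347 in bnagrp3 and 63362 to 70079 in WT after 8 h. In mock it was 160601 to 165993 in bnagrp3 and 142055 to 156999 in WT. Of 69 of these genes tested, 55 were lower in each genotype at 8 h, and the part of this drop in the expansin values was not tested.

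**Figure D2:**
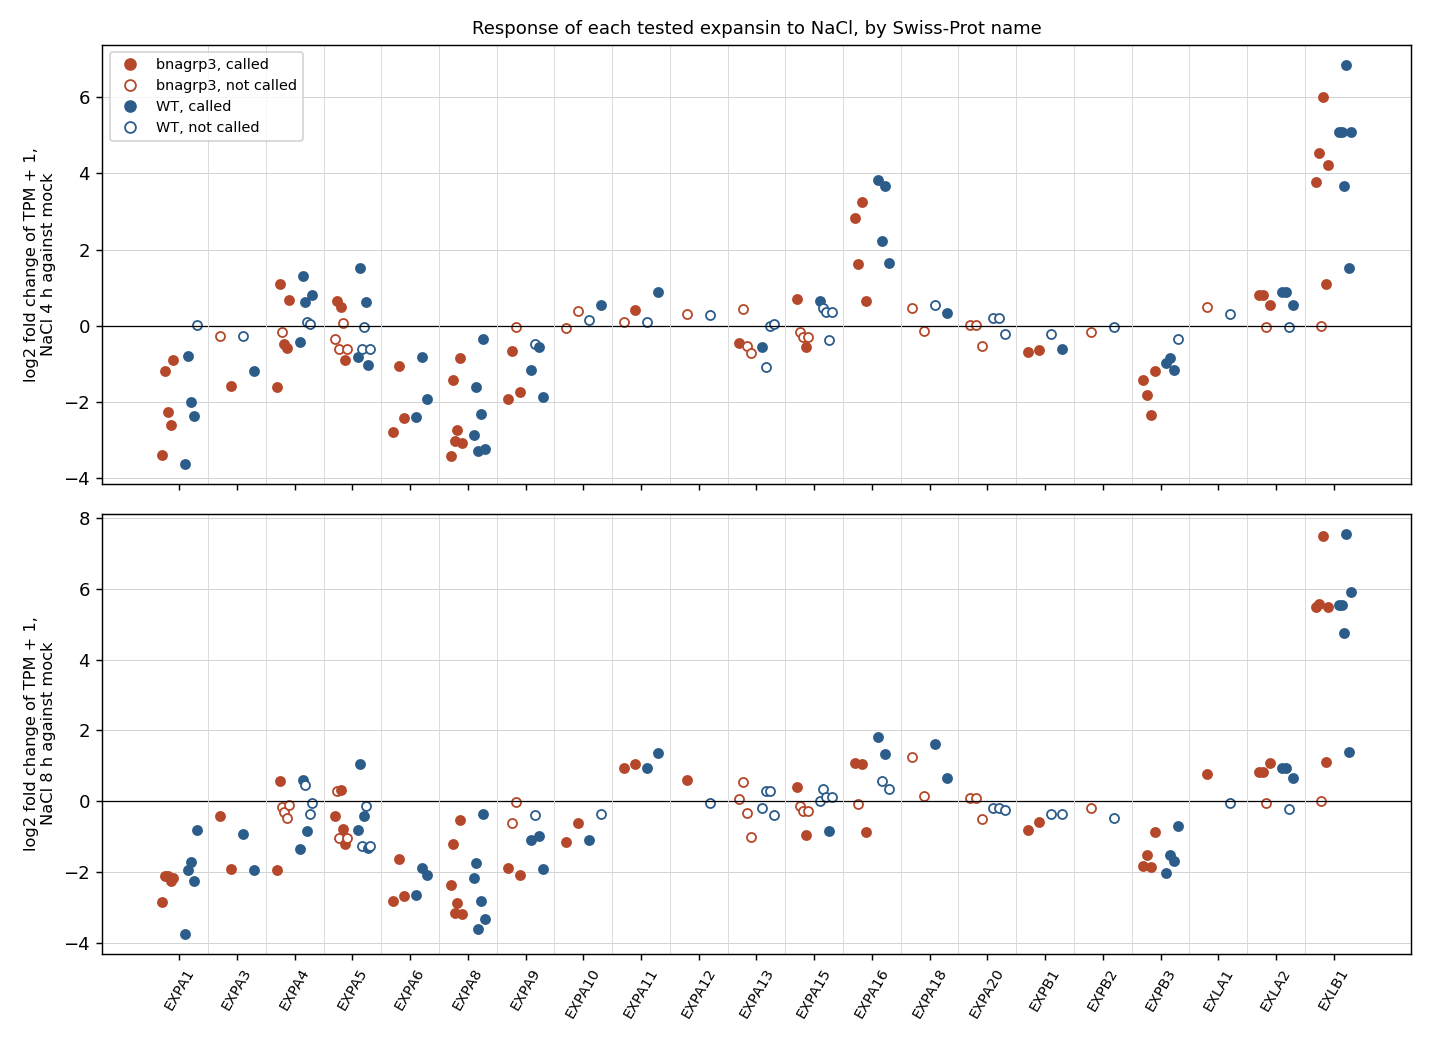
Log2 fold change of TPM + 1 for each of the 74 tested expansins, by Swiss-Prot name, after 4 h (upper panel) and 8 h (lower panel) of NaCl against mock; each point is 1 gene, red for bnagrp3 and blue for WT, filled where the limma adjusted p was under 0.05. Copies of EXLB1 lie up to 7.50 in bnagrp3 and 7.55 in WT at 8 h, copies of EXPA16 are high at 4 h and between -0.88 and 1.82 at 8 h, and EXPA1, EXPA6 and EXPA8 lie mostly below 0.

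Calls differed in direction between the classes. Of all tested genes, 28.7% were higher and 23.5% lower in bnagrp3 at 4 h, and 26.0% and 20.5% in WT. At 8 h these shares were 31.3% and 18.4% in bnagrp3, and 29.0% and 17.3% in WT. Whether any class differs from all genes was not tested. Of the 6 EXLB1 genes, 5 rose in bnagrp3 and 6 rose in WT at both times. Of the 5 EXLA genes, 3 rose at 4 h in each genotype, and 4 in bnagrp3 and 3 in WT at 8 h, and each count holds a pair of identical rows. The third EXLA call at 4 h, BnaC01G0001000ZS, was lost in 6 of 24 alternatives in bnagrp3, among them the removal of replicate 1 or 3 of either bnagrp3 group compared. Its WT call was lost in 12 of 24, among them the removal of WT mock replicate 2 or 3 or WT replicate 1 or 3 at 4 h. None of the 7 tested class B genes was called higher at either time by limma, nor at an unadjusted p under 0.05, and 6 fell in bnagrp3 and 4 in WT at each time. Of these, EXPB1 BnaC07G0004100ZS lost its bnagrp3 call without replicate 1 or 2 of bnagrp3 mock at both times and without bnagrp3 replicate 1 or 3 at 4 h or 1 or 2 at 8 h. Its WT call at 4 h was lost without WT mock replicate 2 or 3 or WT replicate 1 or 3 at 4 h. Class A moved both ways, with 10 higher and 24 lower in bnagrp3 and 13 higher and 21 lower in WT at 4 h, and 8 higher and 26 lower in each genotype at 8 h.

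EXLB1 included the member with the highest mean over all 18 libraries. BnaC01G0231200ZS held 0.18, 0 and 0 TPM in the bnagrp3 mock libraries, 89.6, 59.4 and 54.8 TPM at 4 h and 191, 198 and 181 TPM at 8 h. In WT it held 0, 0 and 0.22 TPM in mock, 175, 76.4 and 138 TPM at 4 h and 190, 223 and 187 TPM at 8 h. All NaCl libraries stood above all mock libraries, with fold changes of 7.50 (SE 0.24, limma adjusted p = 7.12e-12) in bnagrp3 and 7.55 (SE 0.24, adjusted p = 6.15e-12) in WT at 8 h. A copy on chromosome A01, BnaA01G0180900ZS, was listed at 0 in the 3 bnagrp3 mock libraries and reached 16.8, 12.5 and 9.74 TPM at 4 h and 47.4, 44.7 and 39.1 TPM at 8 h. In WT the A01 copy was at 0.17, 0 and 0 TPM in mock, 38.6, 30.2 and 36.4 TPM at 4 h and 45.5, 51.2 and 47.7 TPM at 8 h. At 4 h the bnagrp3 libraries of this copy all lay below the WT libraries, and at 8 h the genotypes overlapped.

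BnaA03G0437800ZS and BnaC07G0412800ZS were strongly induced EXLB1 copies on chromosomes A03 and C07. The A03 copy averaged 99.6 ± 4.5 TPM in bnagrp3 and 84.5 ± 1.8 TPM in WT after 8 h, against 1.13 ± 0.34 TPM and 0.85 ± 0.06 TPM in the mock libraries of bnagrp3 and WT. The C07 copy averaged 94.8 ± 8.0 TPM in bnagrp3 and 99.9 ± 7.1 TPM in WT after 8 h, against 1.14 ± 0.33 TPM and 0.68 ± 0.18 TPM in mock. A weaker copy near it by number, BnaC07G0412400ZS, rose as well but stayed below 4 TPM, with fold changes of 1.09 and 1.10 in bnagrp3 and 1.52 and 1.40 in WT at 4 h and 8 h.

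The sixth copy separated the genotypes. BnaA03G0438000ZS was listed at 0 in all 9 bnagrp3 libraries, whatever the treatment. In WT it was at 0.17, 0 and 0.41 TPM in mock, 19.8, 10.5 and 13.2 TPM at 4 h and 34.5, 28.5 and 30.1 TPM at 8 h. Its WT response was 3.67 (SE 0.17, limma adjusted p = 4.41e-10) at 4 h and 4.76 (SE 0.17, adjusted p = 2.75e-11) at 8 h, and no fold is given against the bnagrp3 libraries listed at 0. Its neighbour by number on the same chromosome, BnaA03G0437800ZS, was induced in both genotypes, as given above.

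**Figure D3:**
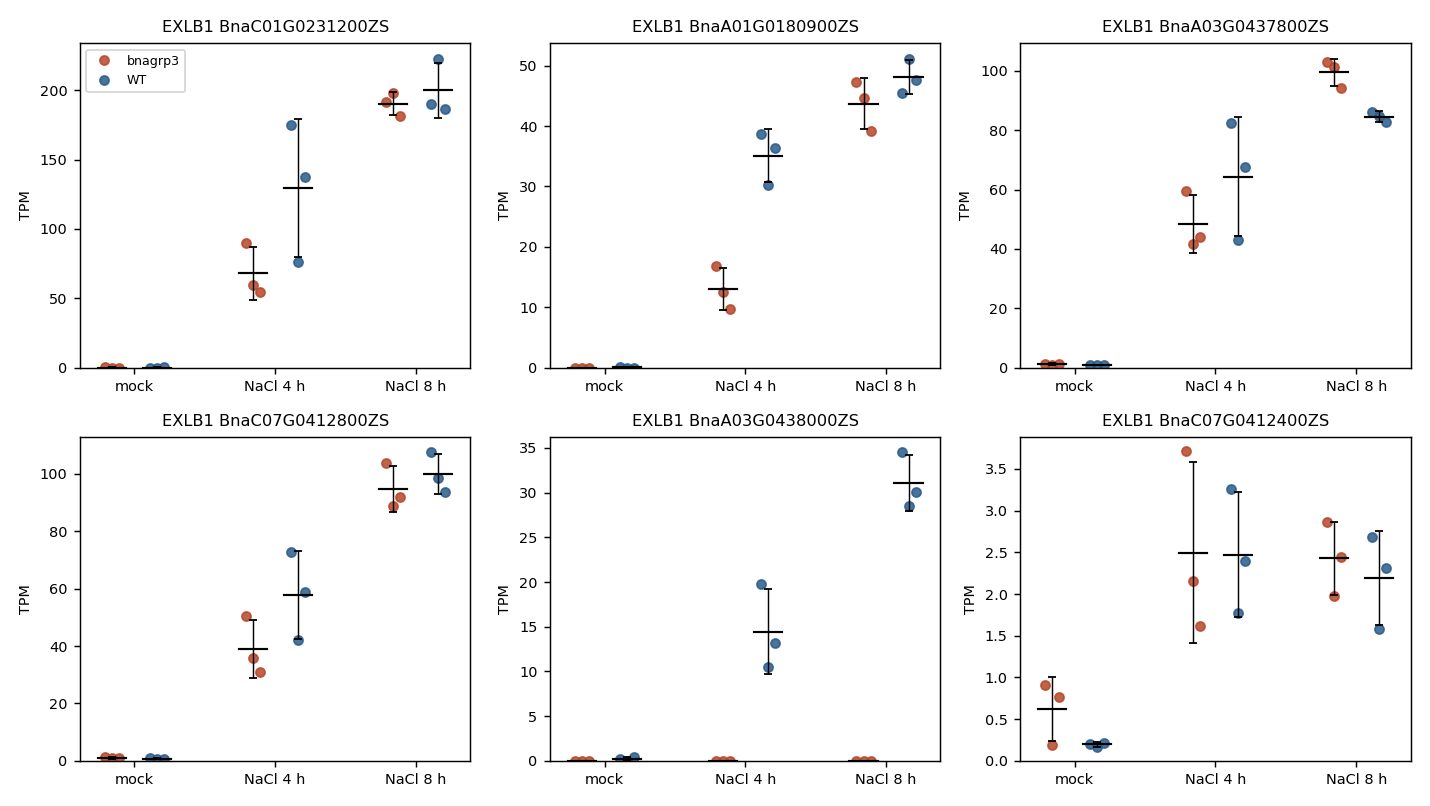
TPM of the 6 EXLB1 genes in every library; points are libraries (red bnagrp3, blue WT), horizontal lines means of 3 and bars 1 SD. Each gene is near 0 in mock and higher under NaCl in both genotypes, except BnaA03G0438000ZS, which is at 0 in the 9 bnagrp3 libraries and reaches 28.5 to 34.5 TPM in WT at 8 h.

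Some expansin-like A genes rose too, at levels below 8 TPM. EXLA1 (BnaC07G0549400ZS) averaged 6.36 ± 1.72 TPM in bnagrp3 at 8 h, against 3.44 ± 1.66 TPM in its mock libraries, a rise of 0.76 (SE 0.22, adjusted p = 0.00893) even though the libraries overlapped. In WT the same gene averaged 3.68 ± 0.38 TPM at 8 h and 3.84 ± 0.62 TPM in mock and was not called. The identical EXLA2 rows BnaA01G0000700ZS and BnaA01G0001800ZS averaged 1.52 ± 0.17 TPM in bnagrp3 and 1.54 ± 0.12 TPM in WT at 8 h, against 0.42 ± 0.12 TPM and 0.32 ± 0.10 TPM in mock. EXLA2 on C01 (BnaC01G0001000ZS) averaged 2.33 ± 0.55 TPM in bnagrp3 and 2.44 ± 0.10 TPM in WT at 8 h, against 0.56 ± 0.14 TPM and 1.21 ± 0.22 TPM in mock, and was called higher in both at 8 h, a WT call that was lost without WT mock replicate 3. EXLA2 on A06 (BnaA06G0452100ZS) stayed between 0.48 and 1.49 TPM over the 18 libraries and was called in no comparison.

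EXPA16 was the class A name whose 4 tested members all rose at 4 h, and the rise was short. BnaA04G0040900ZS held 3.84, 3.21 and 2.88 TPM in bnagrp3 mock, 32.9, 23.8 and 32.2 TPM at 4 h and 6.68, 6.98 and 11.1 TPM at 8 h. The WT libraries held 0.55, 1.01 and 0.63 TPM in mock, 16.8, 30.1 and 24.6 TPM at 4 h and 5.08, 2.53 and 9.34 TPM at 8 h. The 4 h libraries stood above both other times in each genotype. Its fold change against mock was 2.82 in bnagrp3 and 3.82 in WT at 4 h (SE 0.31 each, limma adjusted p = 2.87e-06 and 1.70e-07), and 1.07 in bnagrp3 and 1.82 in WT at 8 h (adjusted p = 0.0103 and 0.000243). The bnagrp3 call at 8 h was lost without bnagrp3 replicate 3 of that group.

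The other EXPA16 genes were also highest at 4 h. BnaC04G0315200ZS averaged 18.8 ± 2.2 TPM in bnagrp3 and 15.8 ± 3.7 TPM in WT at 4 h, against 1.09 ± 0.33 TPM and 0.30 ± 0.06 TPM in mock. BnaA09G0512600ZS averaged 21.4 ± 2.7 TPM in bnagrp3 and 15.6 ± 9.6 TPM in WT at 4 h, against 6.28 ± 0.26 TPM and 2.16 ± 0.36 TPM in mock. In BnaC08G0354500ZS the level at 8 h fell below mock in bnagrp3 (2.72 ± 0.39 TPM against 5.86 ± 0.79 TPM, -0.88, adjusted p = 0.00932), and was 3.28 ± 1.21 TPM against 2.38 ± 0.88 TPM in WT, which was not called. Its rise at 4 h in bnagrp3, 9.85 ± 1.89 TPM against 5.86 ± 0.79 TPM in mock (0.65, adjusted p = 0.0423), was lost in 14 of 25 alternatives, among them the removal of any one bnagrp3 mock library. Between 4 h and 8 h all 4 genes fell in both genotypes, by -1.53 to -2.21 in bnagrp3 and by -1.32 to -2.35 in WT, where 3 of the 4 calls were lost in a fit of the compared groups alone.

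EXPA11 was highest at 8 h. BnaC07G0196400ZS, second of all members by mean level, held 60.6, 40.7 and 53.7 TPM in bnagrp3 mock, 61.6, 68.4 and 73.4 TPM at 4 h and 106, 105 and 111 TPM at 8 h. WT libraries had 55.3, 38.4 and 57.4 TPM in mock, 96.0, 88.6 and 91.7 TPM at 4 h and 118, 134 and 132 TPM at 8 h. At 8 h the libraries stood above all mock libraries, with fold changes of 1.06 (SE 0.15, adjusted p = 3.02e-05) in bnagrp3 and 1.35 (SE 0.15, adjusted p = 3.22e-06) in WT. BnaA07G0134600ZS was near mock at 4 h and averaged 46.2 ± 4.3 TPM in bnagrp3 and 46.3 ± 4.6 TPM in WT at 8 h, against 24.1 ± 4.9 TPM and 24.3 ± 6.6 TPM in mock. The genotypes gave the A07 copy nearly the same values, with a difference of the 8 h responses of -0.01 (SE 0.26).

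**Figure D4:**
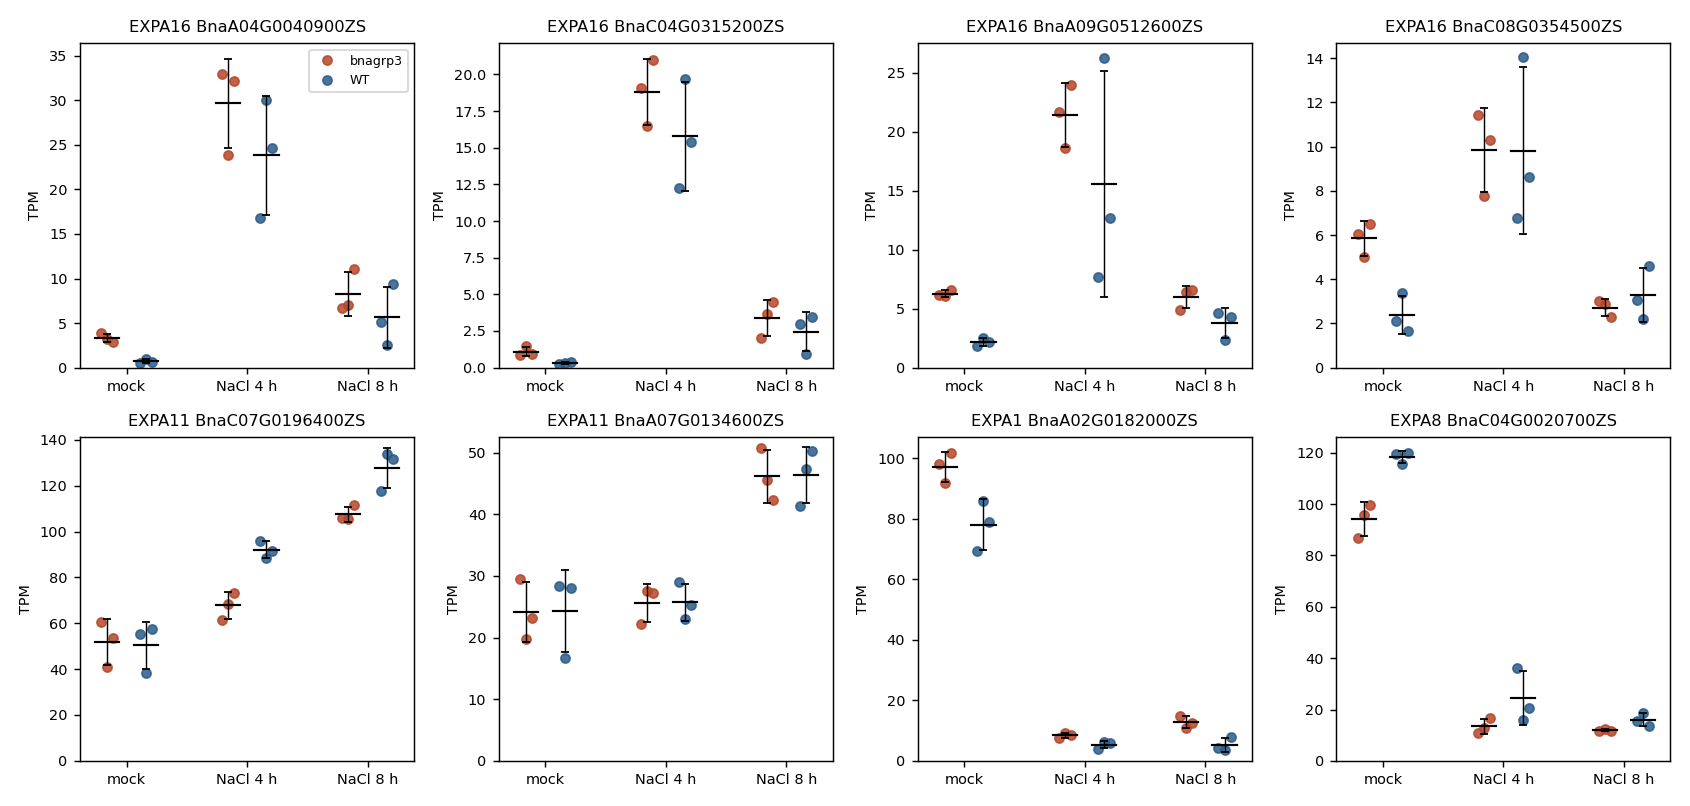
TPM in every library for the 4 EXPA16 genes, the 2 tested EXPA11 genes, EXPA1 BnaA02G0182000ZS and EXPA8 BnaC04G0020700ZS; points are libraries (red bnagrp3, blue WT), horizontal lines means of 3 and bars 1 SD. EXPA16 peaks at 4 h, EXPA11 is highest at 8 h, and EXPA1 and EXPA8 are lower at both NaCl times than in mock.

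The largest falls of single genes were in EXPA1, EXPA6 and EXPA8. EXPA1 acts in guard cell walls in Arabidopsis, and its most abundant copy here, BnaA02G0182000ZS, held 98.0, 91.8 and 102 TPM in bnagrp3 mock, 7.51, 9.12 and 8.61 TPM at 4 h and 14.9, 10.8 and 12.6 TPM at 8 h. In WT it held 69.2, 85.9 and 78.9 TPM in mock, 4.04, 6.39 and 5.78 TPM at 4 h and 4.23, 3.46 and 7.72 TPM at 8 h. No NaCl library reached the lowest mock library, and the fold change was -3.38 in bnagrp3 and -3.64 in WT at 4 h and -2.85 and -3.74 at 8 h (SE 0.21 each, adjusted p between 2.43e-09 and 4.10e-08). All 5 tested EXPA1 genes fell in bnagrp3 at both times, and 4 at 4 h and 5 at 8 h fell in WT. Their sum was 29.5 ± 3.2 TPM in bnagrp3 and 33.6 ± 3.6 TPM in WT at 8 h, against 185 ± 11.9 TPM and 169 ± 19.0 TPM in mock.

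All 6 EXPA8 genes were called lower in both genotypes at both times, and this name had the highest sum in mock, 345 ± 11.9 TPM in bnagrp3 and 321 ± 13.1 TPM in WT. BnaC04G0020700ZS held 86.8, 95.8 and 99.8 TPM in bnagrp3 mock, 10.7, 12.9 and 16.6 TPM at 4 h and 11.5, 12.4 and 11.7 TPM at 8 h. The WT libraries held 119, 116 and 120 TPM in mock, 36.4, 16.1 and 20.8 TPM at 4 h and 15.7, 18.7 and 13.8 TPM at 8 h. BnaC03G0233800ZS dropped further in proportion, to 3.28 ± 0.34 TPM in bnagrp3 and 2.71 ± 1.18 TPM in WT at 8 h, against 37.6 ± 1.8 TPM and 42.3 ± 2.1 TPM in mock. BnaC04G0576300ZS changed least of the 6, with 57.5 ± 3.5 TPM in bnagrp3 and 48.5 ± 3.5 TPM in WT at 8 h, against 83.2 ± 2.3 TPM and 64.0 ± 13.2 TPM in mock (-0.53 and -0.38). Its WT call at 8 h was lost without WT mock replicate 3 or WT replicate 2 at 8 h. Its WT call at 4 h (-0.36, adjusted p = 0.0211) was lost in 5 of 25 alternatives, among them the removal of WT mock replicate 3, of WT replicate 1 or 2 at 4 h, or of the 2 WT libraries that stand apart (-0.34, adjusted p = 0.0597). BnaA04G0259200ZS was lowest at 4 h, with 0.68 ± 0.40 TPM in bnagrp3 and 1.55 ± 0.48 TPM in WT, and partly recovered by 8 h, with 2.36 ± 0.25 TPM and 3.13 ± 0.53 TPM, called in both genotypes (1.03 and 0.71, adjusted p = 0.00154 and 0.0146). The WT call of that recovery was lost with a pseudocount of 0.1 TPM, in a fit of the compared groups alone, without WT replicate 2 at 4 h or WT replicate 3 at 8 h, and without both (0.46, adjusted p = 0.164).

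The other 2 EXPA8 genes fell as well. A row with no chromosome in its identifier fell to 1.42 ± 0.35 TPM in bnagrp3 and 1.0 ± 0.39 TPM in WT at 8 h, against 21.2 ± 2.6 TPM and 18.9 ± 1.4 TPM in mock. BnaA05G0020000ZS averaged 39.1 ± 3.3 TPM in bnagrp3 and 17.2 ± 2.4 TPM in WT at 8 h, against 92.0 ± 10.3 TPM and 60.1 ± 1.4 TPM in mock. Its bnagrp3 level lay above its WT level in each of the 3 treatments.

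EXPA6 fell in each of its 3 tested genes, in both genotypes and at both times. BnaA04G0187100ZS held 42.9, 42.3 and 39.0 TPM in bnagrp3 mock, 4.95, 5.55 and 4.80 TPM at 4 h and 5.62, 4.72 and 4.50 TPM at 8 h. WT libraries had 31.1, 37.3 and 34.2 TPM in mock, 5.92, 6.09 and 5.01 TPM at 4 h and 5.21, 5.07 and 3.67 TPM at 8 h. Most of this fall was in place by 4 h, and the 8 h against 4 h change did not pass the threshold in bnagrp3 (-0.04, adjusted p = 0.895) or WT (-0.25, adjusted p = 0.182). BnaC04G0489400ZS averaged 4.38 ± 0.63 TPM in bnagrp3 and 8.43 ± 2.98 TPM in WT at 8 h, against 33.4 ± 0.4 TPM and 39.0 ± 9.8 TPM in mock. EXPA3, with 2 tested genes, summed to 30.7 ± 4.8 TPM in bnagrp3 and 26.4 ± 2.2 TPM in WT at 8 h, against 71.7 ± 3.5 TPM in bnagrp3 mock and 65.8, 75.9 and 85.8 TPM in the WT mock libraries. Both genes fell at 8 h in each genotype. The bnagrp3 call of BnaA05G0077300ZS was lost without bnagrp3 mock replicate 1 or 2 or bnagrp3 replicate 1 at 8 h. EXPA9, with 6 genes of which 4 were tested, summed to 4.31 ± 0.19 TPM in bnagrp3 and 2.89 ± 0.49 TPM in WT at 8 h, against 23.1 ± 1.9 TPM and 14.5 ± 1.2 TPM in mock.

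Class B was represented mainly by EXPB3. Its 4 genes summed to 18.6 ± 1.3 TPM in bnagrp3 and 12.9 ± 1.9 TPM in WT at 8 h, against 70.1 ± 1.1 TPM and 48.1 ± 5.4 TPM in mock, and all 4 were called lower in both genotypes at 8 h. The WT call of BnaC07G0481800ZS (-0.71, adjusted p = 0.0175) was lost in a fit of the compared groups alone, without WT mock replicate 2 or WT replicate 3 at 8 h, and without the 2 WT libraries that stand apart (-0.60, adjusted p = 0.0600). BnaC01G0225200ZS, the most abundant, held 37.1, 39.4 and 39.7 TPM in bnagrp3 mock, 6.47, 7.54 and 6.39 TPM at 4 h and 11.3, 9.53 and 9.31 TPM at 8 h. In WT it held 19.5, 23.4 and 27.0 TPM in mock, 8.27, 10.4 and 10.8 TPM at 4 h and 6.60, 7.43 and 5.34 TPM at 8 h. The mutant thus stood above WT in mock, below it at 4 h and above it again at 8 h, with no overlap of libraries at any of the 3 points. The 2 tested EXPB1 genes and 1 tested EXPB2 gene did not exceed 2.11 TPM in any library.

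EXPA4 and EXPA5 had members on both sides. Of the 6 EXPA4 genes, 2 rose and 3 fell in bnagrp3 and 3 rose and 1 fell in WT at 4 h, with fold changes from -1.61 to 1.08 in bnagrp3 and from -0.44 to 1.31 in WT. BnaA04G0254500ZS, the member with the highest fold change in each, kept its 4 h call under every alternative in both genotypes. In WT the fall of BnaA03G0193400ZS was lost in 6 of 25 alternatives, among them the removal of any one WT mock library or of WT replicate 1 or 3 at 4 h. The rises of BnaA05G0065000ZS and BnaC04G0568800ZS were lost in 7 and 3, both without WT replicate 2 at 4 h. Without the 2 WT libraries that stand apart BnaA05G0065000ZS was at 0.57 (adjusted p = 0.0980). In bnagrp3 the calls of BnaC03G0227000ZS, BnaC04G0071500ZS and BnaC04G0568800ZS were lost in 7, 4 and 5 alternatives, mostly with a single bnagrp3 library left out. EXPA5, linked to brassinosteroid-driven growth in Arabidopsis, had 7 tested genes, of which 2 rose and 1 fell in bnagrp3 and 2 rose and 2 fell in WT at 4 h. The bnagrp3 call of BnaA06G0373800ZS was lost without replicate 1 or 2 of either group compared. Its most abundant member fell: BnaC09G0029000ZS held 62.0, 58.3 and 65.7 TPM in bnagrp3 mock, 29.4, 33.6 and 34.5 TPM at 4 h and 25.5, 26.5 and 27.0 TPM at 8 h. In WT the same gene held 139, 127 and 163 TPM in mock, 93.6, 46.5 and 76.0 TPM at 4 h and 56.5, 61.7 and 50.9 TPM at 8 h. EXPA10, which promotes leaf growth in Arabidopsis, was late: its 2 genes summed to 105 ± 18.9 TPM in bnagrp3 and 92.8 ± 22.0 TPM in WT at 4 h, against 93.8 ± 10.9 TPM and 72.3 ± 12.4 TPM in mock. By 8 h the EXPA10 sum was 49.6 ± 6.9 TPM in bnagrp3 and 43.1 ± 1.3 TPM in WT, and both genes fell between 4 h and 8 h in each genotype (-1.0 and -1.09 in bnagrp3, -0.90 and -1.24 in WT). Both WT calls were lost in a fit of the compared groups alone, and that of BnaC05G0219000ZS also without the 2 WT libraries that stand apart (-0.70, adjusted p = 0.0634).

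Between 4 h and 8 h of NaCl, 9 expansins were higher and 12 lower in bnagrp3 (15.3% of all genes called, 10.3% higher and 5.05% lower), and 5 were higher and 20 lower in WT (14.7% of all genes called, 8.99% higher and 5.75% lower). These comparisons need no mock library. Under every alternative in which the gene was tested, 16 of the 21 bnagrp3 calls and 4 of the 25 WT calls were kept. With median-of-ratios rescaling 45.6% of all called genes were higher in bnagrp3, against 67.0% before, and 45.5% in WT, against 61.0% before, with 7 higher and 14 lower members in bnagrp3 and 4 higher and 21 lower in WT. In bnagrp3 the largest rises were 4 EXLB1 copies, led by BnaA01G0180900ZS with 1.70 (SE 0.15, adjusted p = 2.04e-05) and BnaC01G0231200ZS with 1.51 (SE 0.24, adjusted p = 0.000976). In WT the rises included EXLB1 BnaA03G0438000ZS with 1.09 (adjusted p = 0.00093), EXLB1 BnaC07G0412800ZS with 0.81 (adjusted p = 0.0115) and the EXPA11 pair, BnaA07G0134600ZS with 0.82 (adjusted p = 0.00847) and BnaC07G0196400ZS with 0.47 (adjusted p = 0.0473). Without the 2 WT libraries that stand apart, 1 member was called higher in WT, and both EXPA11 genes and BnaC07G0412800ZS missed the threshold (adjusted p = 0.0869, 0.210 and 0.0689). The WT call of BnaA03G0438000ZS was lost with a pseudocount of 0.1 TPM and in a fit of the compared groups alone. The WT count of rises was 8 without WT replicate 1 at 4 h and 3 without WT replicate 3 at 8 h, and the WT call of BnaC07G0196400ZS was lost in 17 of 25 alternatives.

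Many expansins were called in both genotypes, as were many of all genes. Of the members called higher at 4 h, 17 were shared, 94.4% of the 18 in bnagrp3 and 77.3% of the 22 in WT. Of those called lower, 23 were shared, 76.7% of the 30 in bnagrp3 and 92.0% of the 25 in WT. At 8 h the shared members were 13 of 17 higher in each genotype and 27 lower, 84.4% of the 32 in bnagrp3 and 90.0% of the 30 in WT. Over all tested genes the shared calls were 73.5% of those higher and 71.1% of those lower in bnagrp3, and 81.0% and 81.4% in WT, at 4 h. At 8 h they were 74.7% and 73.4% in bnagrp3 and 80.7% and 78.0% in WT. Whether the members differ from all genes in this was not tested. One member, EXPA5 BnaC02G0486500ZS, was called higher in bnagrp3 and lower in WT at 8 h. Its bnagrp3 call was lost without bnagrp3 mock replicate 2 or replicate 2 or 3 of bnagrp3 at 8 h.

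Set directly against WT, bnagrp3 had 13 expansins higher and 6 lower in mock (21.5% of all genes called, 9.10% higher and 12.4% lower), 4 higher and 18 lower at 4 h (23.6% called, 9.89% higher and 13.7% lower) and 11 higher and 8 lower at 8 h (23.4% called, 11.4% higher and 12.0% lower). Calls kept under every alternative in which the gene was tested were 11 of 19 in mock, 7 of 22 at 4 h and 9 of 19 at 8 h. The count of members higher in mock was 8 without bnagrp3 mock replicate 3. At 4 h the higher count was 8 without WT replicate 2 of that group and 2 without most other single libraries, and the lower count was 10 without WT replicate 1, so the 4 h counts rest on single WT libraries. Rescaling by the median of ratios gave 7 higher and 17 lower at 4 h, so that 29.2% of the called members were higher, against 18.2% before. At 8 h the higher count was 7 without bnagrp3 replicate 1, 4 without bnagrp3 replicate 3 and 5 without WT replicate 1 or replicate 2.

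EXPA5 copies differed between the genotypes in opposite directions. BnaC09G0029000ZS was lower in bnagrp3 in every treatment, by -1.19 in mock, -1.07 at 4 h and -1.07 at 8 h (SE 0.18 each, limma adjusted p = 0.000334, 0.000682 and 0.000652). All 3 bnagrp3 libraries lay below all 3 WT libraries each time, and the 4 h call was lost in a fit of the compared groups alone. BnaA09G0043500ZS, whose values are identical to those of Bnascaffold0027G0000800ZS, was higher in bnagrp3, with 15.1, 15.9 and 15.4 TPM in bnagrp3 mock and 4.05, 3.60 and 4.13 TPM in WT mock. At 4 h it held 10.2, 9.12 and 10.1 TPM in bnagrp3 and 0, 7.48 and 2.86 TPM in WT, and at 8 h 7.39, 6.82 and 6.55 TPM in bnagrp3 and 0.80, 0 and 3.66 TPM in WT. The difference was 1.74 in mock, 1.75 at 4 h and 1.96 at 8 h (SE 0.59 each, adjusted p = 0.0484, 0.0443 and 0.0258), and without the 2 WT libraries that stand apart it was 1.74, 2.46 and 2.56 (adjusted p = 0.0032, 0.000503 and 0.00038). Those 2 libraries held the highest WT values of this gene in their groups, 7.48 and 3.66 TPM, and a gene set that includes it picked them. A larger NaCl difference without them thus followed from the choice. Each SE pools all groups of the fit, among them the uneven WT NaCl libraries. This pair of identical rows belongs to the 326 genes that mark the uneven WT libraries, and its WT values are 0 in both libraries where the median ratio of those genes is 0 and highest in the library where it is 0.670. Entry to that set asked for at most 0.2 TPM in at least 2 WT libraries, so this match is partly built in by the choice. The mock call was lost in 17 of 25 alternatives, the 4 h call in 19 and the 8 h call in 8, and each was lost without any one library of the bnagrp3 group compared. The mock call was also lost without any one WT mock library, the 4 h call without WT replicate 1 or 3 and the 8 h call without WT replicate 1 or 2 of the group compared.

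**Figure D5:**
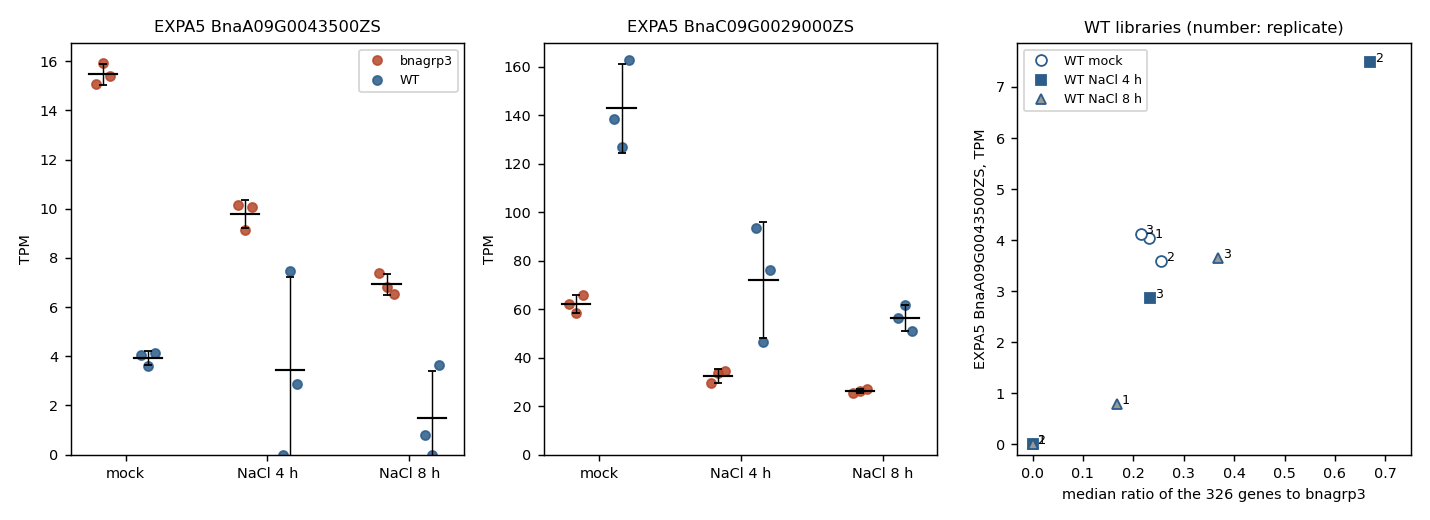
Left and middle, TPM of EXPA5 BnaA09G0043500ZS and BnaC09G0029000ZS in every library, with the mean of 3 libraries and 1 SD (red bnagrp3, blue WT; SD bars are cut at 0). Right, BnaA09G0043500ZS in the 9 WT libraries against the median ratio to bnagrp3 of the 326 genes that mark uneven WT libraries, with replicate numbers. The gene is at 0 where that ratio is 0 and at 7.48 TPM where it is 0.670. It is itself among the 326, chosen for at most 0.2 TPM in at least 2 WT libraries, so the match is partly built in.

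Further members differed between the genotypes. EXPA6 BnaA07G0165400ZS was lower in bnagrp3 throughout, with 8.72 ± 0.89 TPM in bnagrp3 mock and 16.9 ± 3.6 TPM in WT mock, and with 2.14 ± 0.32 TPM in bnagrp3 and 3.81 ± 0.65 TPM in WT at 8 h. The 8 h call (-0.61, adjusted p = 0.0236) was lost without replicate 1 or 3 of bnagrp3 or replicate 1 or 2 of WT. EXPA6 BnaC04G0489400ZS was lower in bnagrp3 at 8 h by -0.77 (adjusted p = 0.0223), a call lost without bnagrp3 replicate 3 or WT replicate 1 of that time. EXPA4 BnaC03G0227000ZS was higher in bnagrp3 in mock (17.8 ± 0.27 TPM against 7.96 ± 1.09 TPM in WT, 1.08, adjusted p = 0.000644) and at 8 h (14.3 ± 0.84 TPM against 3.96 ± 0.52 TPM in WT, 1.63, adjusted p = 1.33e-05). EXPA16 BnaA09G0512600ZS was higher in bnagrp3 mock (6.28 ± 0.26 TPM against 2.16 ± 0.36 TPM in WT mock, 1.21, adjusted p = 0.0111), as was EXPA16 BnaA04G0040900ZS (1.32, adjusted p = 0.00771). EXPA1 BnaA02G0182000ZS was higher in bnagrp3 at 8 h, at 12.7 ± 2.0 TPM against 5.14 ± 2.27 TPM in WT (1.21, adjusted p = 0.000627). The EXPA5 genes BnaA02G0351400ZS and BnaC02G0486500ZS were lower in bnagrp3 mock, by -0.51 (adjusted p = 0.0346) and -0.47 (adjusted p = 0.00313), and the call of BnaA02G0351400ZS was lost without replicate 1 or 2 of bnagrp3 mock or replicate 1 or 3 of WT mock.

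The test of the difference between the genotypes' responses called 0 members higher and 5 lower at 4 h (2.46% of all genes called, 1.14% higher and 1.32% lower) and 1 higher and 2 lower at 8 h (1.38% of all genes called, 0.782% higher and 0.599% lower). At an unadjusted p under 0.05, limma had 1 member higher and 26 lower at 4 h, and 9 higher and 8 lower at 8 h. The share of all genes past that unadjusted cut was not taken, so these counts are not read as a trait of the family. Without WT replicate 2 at 4 h, 8 members were called lower, and 1 was called higher without WT replicate 1 at 4 h or WT replicate 2 or 3 at 8 h. EXLB1 BnaA03G0438000ZS led both times, since it was listed at 0 throughout bnagrp3. EXLB1 BnaA01G0180900ZS had a smaller 4 h response in bnagrp3 (3.78 against 5.09 in WT, a difference of -1.31 with SE 0.21, adjusted p = 0.00535), and its 8 h responses were 5.48 and 5.54 (difference -0.06, SE 0.21). Since its bnagrp3 mock libraries are listed at 0, these sizes depend on the pseudocount, and with 0.1 TPM in place of 1 TPM the 4 h difference missed the threshold. For BnaC01G0231200ZS, BnaA03G0437800ZS and BnaC07G0412800ZS the 4 h difference was -0.86, -0.57 and -0.89 (SE 0.34, 0.27 and 0.27), none past the threshold (adjusted p = 0.20, 0.301 and 0.103). Without the 2 WT libraries that stand apart the differences were -1.20, -0.83 and -1.10 (SE 0.25, 0.21 and 0.25). All 3 then passed the threshold (limma adjusted p = 0.0181, 0.0418 and 0.0270). WT replicate 2 at 4 h, which that fit leaves out, held the lowest summed EXLB1 level of its group, 204 TPM against 392 and 316 TPM. The larger differences thus followed from leaving it out, and no genotype difference is read from them.

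EXPB3 BnaC01G0225200ZS fell more in bnagrp3 at 4 h, by -2.35 against -1.16 in WT (difference -1.19, SE 0.19, adjusted p = 0.00493), as did EXPA4 BnaA03G0193400ZS, by -1.61 against -0.44 (difference -1.17, SE 0.23, adjusted p = 0.0156). Both genes stood higher in bnagrp3 mock than in WT mock. EXPA1 BnaC06G0360400ZS differed in the time of its fall. It held 28.5, 21.4 and 28.0 TPM in bnagrp3 mock, 10.7, 15.6 and 14.4 TPM at 4 h and 4.68, 4.83 and 5.36 TPM at 8 h. The WT libraries held 25.1, 22.6 and 28.9 TPM in mock, 28.5, 22.4 and 26.9 TPM at 4 h and 12.0, 16.5 and 14.1 TPM at 8 h. The genotypes overlapped in mock, and at both NaCl times the bnagrp3 libraries lay below the WT libraries, with a difference of response of -0.92 at 4 h (SE 0.22, adjusted p = 0.0435) and -1.36 at 8 h (SE 0.22, adjusted p = 0.00663). The 8 h call was kept in all 25 alternatives, while the 4 h call was lost in 17 of them, among them the removal of replicate 1 or 3 of bnagrp3 mock or bnagrp3 at 4 h, of replicate 1 or 2 of WT mock, or of replicate 1 or 3 of WT at 4 h.

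Called members lay on both sets of chromosomes. Of 38 tested members on A chromosomes, 9 were higher and 14 lower in bnagrp3 and 11 higher and 14 lower in WT at 8 h. Of 33 on C chromosomes, 8 were higher and 17 lower in bnagrp3 and 6 higher and 15 lower in WT. Of all tested genes, 31.3% were higher and 18.4% lower in bnagrp3 at 8 h, and 29.0% and 17.3% in WT. Shares of all genes were not taken for each subgenome, and the difference between the subgenomes was not tested.

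Other genes of acid growth and wall loosening were read against all tested genes at 8 h, of which 31.3% were higher and 18.4% lower in bnagrp3 and 29.0% higher and 17.3% lower in WT. Of 24 tested plasma membrane proton pumps, 10 were higher and 3 lower in bnagrp3 and 12 higher and 4 lower in WT at 8 h, with a median fold change of 0.40 and 0.35. Of 68 tested xyloglucan endotransglucosylase genes, 18 were higher and 28 lower in bnagrp3 and 17 higher and 32 lower in WT, with medians of -0.50 and -0.54. Endoglucanases were mostly lower or not called: of 33 tested, 2 were higher and 17 lower in bnagrp3 and 1 higher and 22 lower in WT, with medians of -0.64 and -0.60. Of 135 tested genes that Swiss-Prot names SAUR or auxin-induced protein, 19 were higher and 25 lower in each genotype, with medians of -0.12 in bnagrp3 and -0.22 in WT. SAURs are early auxin-responsive genes of which some activate proton pumps in Arabidopsis, and this list was not limited to genes named SAUR. At 8 h the median of all tested genes was 0.14 in both genotypes.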

How the data were processed

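RNA was extracted from the aboveground part and poly(A) RNA was enriched, per the labels' protocols. The authors deposited 1 table of TPM per gene and library (columns named as TPM per the file headers), made with fastp, HISAT2 and featureCounts per the submitters' processing notes. The sources used here give no versions, genome build, annotation or strandedness. TPM keeps no read depth, so the depth behind each value is unknown, and precision was judged from the spread among libraries within groups.

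Genes with at least 1 TPM in at least 3 of 18 libraries were kept. Values were taken as log2(TPM + 1) and fitted with limma 3.58.1 in R 4.3.3, with an intensity trend and 1 mean per group over all 18 libraries. Contrasts gave two-sided p-values, which were adjusted over the 57923 kept genes (Benjamini-Hochberg) and called under 0.05. The fit was tested on simulated data. Summaries and plots used Python 3.11.15, pandas 2.3.3 and matplotlib 3.10.9. None of the 130 members matched the RefSeq gene table provided, so no coordinates or sequences are given.

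Genes named with values are up to 5 of the largest rises and falls in each NaCl comparison and up to 4 in the others, among called members with separated libraries and a mean of at least 5 TPM; the 8 members of highest mean; every tested expansin-like gene; and EXPA7 and EXPA18. For the difference of responses no separation was asked. Other members named beside a count were chosen after their values were seen. Members, lists and tests were chosen with earlier results of these data known. The mock libraries serve both times of a genotype. Alternatives were a replicate block, median-of-ratios rescaling, a pseudocount of 0.1 TPM, a 5 TPM filter or none, fits of the compared groups alone, fits without each library in turn or without both WT libraries that stand apart, and, chosen after seeing the data, identical rows counted once.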

Additional observations from a re-analysis of the deposited data

Results flagged for a closer look

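For 6 expansins the response to NaCl differed between bnagrp3 and WT by limma's test of the difference itself. Each value below is the bnagrp3 response minus the WT response in log2(TPM + 1), with limma's adjusted p. At 4 h the difference was -1.31 (adjusted p = 0.00535) for EXLB1 BnaA01G0180900ZS, -1.17 (adjusted p = 0.0156) for EXPA4 BnaA03G0193400ZS, -1.19 (adjusted p = 0.00493) for EXPB3 BnaC01G0225200ZS and -0.92 (adjusted p = 0.0435) for EXPA1 BnaC06G0360400ZS. At 8 h it was -1.36 (adjusted p = 0.00663) for the same EXPA1 gene and 0.72 (adjusted p = 0.0185) for EXPA5 BnaC02G0486500ZS, which averaged 10.8 ± 0.8 TPM in bnagrp3 and 9.0 ± 1.6 TPM in WT after 8 h, against 8.6 ± 0.4 TPM and 12.3 ± 0.7 TPM in mock.

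EXLB1 BnaA03G0438000ZS had a difference of -3.67 (adjusted p = 2.56e-06) after 4 h of NaCl, and of -4.76 (adjusted p = 1.93e-07) after 8 h. The gene is listed at 0 in the 9 bnagrp3 libraries, so these sizes equal its WT response with the sign turned and depend on the pseudocount. Without the 2 WT libraries that stand apart they were -3.86 and -4.78. The 4 h call of EXLB1 BnaA01G0180900ZS was lost with a pseudocount of 0.1 TPM (limma adjusted p = 0.265). The 8 h call of EXPA5 BnaC02G0486500ZS was lost without bnagrp3 mock replicate 2, bnagrp3 8 h replicate 3 or WT mock replicate 3. The 4 h call of EXPA1 BnaC06G0360400ZS, named after its values were seen, was lost in 17 of 25 alternatives, with adjusted p-values from 0.0257 to 0.102 over them.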

How the results depend on the processing

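Of 87 tested values of named genes, 66 kept their call under all 25 alternatives, 21 lost it under at least 1, and 0 reversed. Depth is unknown, so limits come from the spread among libraries within groups. The counts in the 4 NaCl against mock comparisons moved by less than 1.5 times, except that a filter of 5 TPM gave 11 higher in WT at 8 h, with fewer genes tested. The cause of the other changes was not tested.

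For WT at 8 h against 4 h, the 5 higher became 2 with a pseudocount of 0.1 TPM, 2 with only the groups compared and 1 without the 2 WT libraries that stand apart, and the 20 lower became 5 with only the groups compared. For bnagrp3 against WT at 4 h, the 4 higher became 2 with a pseudocount of 0.1 TPM, 2 with no filter, 7 with median-of-ratios rescaling, 0 with only the groups compared, 2 with the replicate block and 8 without the 2 WT libraries, and the 18 lower became 10 with only the groups compared. At 8 h the 11 higher in bnagrp3 became 7 with no filter and 7 with only the groups compared. For the difference of the 4 h response, the 0 higher became 1 with no filter, a filter of 5 TPM, only the groups compared or without the 2 WT libraries, and the 5 lower became 3 with a pseudocount of 0.1 TPM and 8 without the 2 WT libraries. For that of the 8 h response, the 1 higher became 2 with no filter and without the 2 WT libraries.

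Leaving out 1 library at a time gave 3 to 8 higher in WT at 8 h against 4 h, 8 to 14 higher in bnagrp3 against WT in mock, 2 to 8 higher and 10 to 21 lower at 4 h, and 4 to 12 higher at 8 h. The difference of responses ran from 0 to 1 higher and 4 to 8 lower at 4 h, and from 0 to 2 higher at 8 h.

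Replicate numbers did not pair the libraries: over 45 pairs of same-numbered libraries the correlation of deviations ran from -0.43 to 0.07, so the block shares only a number. Besides the change at 4 h, it ended the bnagrp3 against WT calls of EXPA5 BnaA02G0351400ZS in mock and of BnaA09G0043500ZS in mock and at 4 h, the 4 h difference of response of EXPA1 BnaC06G0360400ZS and the 4 h rise of EXPA16 BnaC08G0354500ZS in bnagrp3.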
